A study of Mus musculus with 8 samples.

Results

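The genes described here are 7 genes of Schwann cells and peripheral myelin (Pmp22, Mbp, Sox10, S100b, Prx, Ncmap and Mag), chosen by name as peripheral nerve genes out of 51789 genes in a count table of whole mouse mammary glands. All 7 were found in the table, and all 7 had enough reads to be tested. The glands came from female mice given as C57BL/6, while the methods list an albino C57BL/6 strain, and which of them these glands came from is not given in the sources used here. RNA was sequenced 6 weeks after a single injection of small extracellular vesicles (sEVs) into the gland. The sEVs came from cultures of AT3, a mouse line of metastatic mammary adenocarcinoma, kept in normoxia (sEVNORM, 3 glands) or in hypoxia (sEVHYP, 2 glands), and the control preparation (sEVCTRL, 3 glands) was made from medium that had held no cells. The age of the animals is not given in the sources used here. The study asked whether sEVs of hypoxic tumor cells change a normal gland, and for nerve genes this becomes whether any of the 7 genes differed between the 3 groups.

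Schwann cells are the glia of peripheral nerves. Myelinating Schwann cells wrap a single axon in a compact membrane built of a few abundant proteins, while non-myelinating (Remak) Schwann cells hold bundles of thin axons. The mammary gland is reached by sensory and sympathetic fibers that run with its vessels and to the nipple, so a whole-gland extract holds pieces of nerve along with epithelium, fat, vessels and immune cells. SOX10 and EGR2 are the transcription factors best known for switching on the myelin genes.

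Total counts per library were 18194996 to 24622569, and levels are given below as CPM, the count of a gene relative to the library total after scaling with trimmed mean of M values (TMM) factors. Some libraries stood apart in their tissue content. The summed level of 10 skeletal muscle markers was 12.7 CPM in sEVNORM replicate 2 and 643 to 12079 CPM in the other libraries. The summed level of 8 keratinocyte and skin markers was 73.6 CPM in sEVNORM replicate 3 and 8.75 to 13.1 CPM elsewhere. With edgeR's quasi-likelihood test, 0 of 17858 genes passed a Benjamini-Hochberg adjusted P of 0.05 in any comparison, while 438 genes (sEVHYP versus sEVCTRL), 706 genes (sEVHYP versus sEVNORM) and 290 genes (sEVNORM versus sEVCTRL) had an unadjusted P under 0.05. DESeq2 on all libraries gave 4, 16 and 2 genes past an adjusted P of 0.05 in the same order, and none of the 7 nerve genes was among them.

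The label was first set against the data. Central nervous system myelin markers were nearly absent, with none of 7 genes reaching the filter on low counts and summed levels of at most 0.711 CPM in any library, and Mog, Opalin and Olig1 had at most 3 counts in all 8 libraries together. Prx and Ncmap, genes of peripheral myelin, were counted in every library, at 1.60 to 5.06 CPM and 0.709 to 2.08 CPM. Both belong to the 7 genes and had passed the filter on low counts, so their presence is no independent check of the label.

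Levels of the 7 genes spanned a wide range. Per kilobase of exon, the mean level over the 8 libraries was 133 CPM for Pmp22, 9.55 CPM for Mbp, 2.13 CPM for S100b, 2.04 CPM for Sox10, 0.635 CPM for Prx, 0.615 CPM for Ncmap and 0.169 CPM for Mag. Pmp22 was above Mbp, Mbp above S100b, Sox10 above Prx, and Ncmap above Mag in 8 of 8 libraries, by a mean log2 difference in level per kilobase of 3.76 ± 0.29 (SD, n = 8), 2.24 ± 0.45, 1.70 ± 0.57 and 1.91 ± 0.81. The neighbours S100b and Sox10 did not differ beyond their spread (0.08 ± 0.48, S100b higher in 6 of 8 libraries), nor did Prx and Ncmap (0.03 ± 0.50, Prx higher in 4 of 8 libraries). For comparison, the level per kilobase was 8.76 CPM for Cnp, another myelin gene. PMP22 is also made by fibroblasts and epithelial cells, and Mbp has a second set of transcripts (golli) used by immune cells. Counts per gene do not separate these sources.

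Promoter sequences are shown for Pmp22, Prx and Mag, chosen because their upstream windows held letters known from factors of the Schwann cell program. Binding was not measured. Each is the 250 bases before the annotated start, taken from RefSeq on GRCm38.p6 and written in the direction of the gene, with the matched letters in capitals. Of the 7 genes, 5 had an entry in the RefSeq promoter table.
Pmp22 promoter, first of 4 starts: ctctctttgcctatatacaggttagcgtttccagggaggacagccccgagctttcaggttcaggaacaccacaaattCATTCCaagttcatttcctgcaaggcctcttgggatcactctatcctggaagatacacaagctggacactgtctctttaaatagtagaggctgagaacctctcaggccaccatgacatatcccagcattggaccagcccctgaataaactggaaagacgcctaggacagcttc
Prx promoter: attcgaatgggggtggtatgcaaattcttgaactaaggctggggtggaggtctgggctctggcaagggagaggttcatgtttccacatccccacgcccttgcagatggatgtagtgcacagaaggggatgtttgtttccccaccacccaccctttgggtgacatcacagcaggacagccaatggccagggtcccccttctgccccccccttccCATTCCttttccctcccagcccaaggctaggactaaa
Mag promoter, first of 3 starts: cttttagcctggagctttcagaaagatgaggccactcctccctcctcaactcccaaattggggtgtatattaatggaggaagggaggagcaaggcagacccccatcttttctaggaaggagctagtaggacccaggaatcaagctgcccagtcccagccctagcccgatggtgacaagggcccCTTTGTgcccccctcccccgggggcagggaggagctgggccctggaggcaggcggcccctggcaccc
The Pmp22 window is chr11:63128732-63128981 on the plus strand, the Prx window chr7:27499074-27499323 on the plus strand, and the Mag window chr7:30914923-30915172 on the minus strand. The letters searched on both strands were ACAAAG and ACAATG (SOX factors), GTGGGCG (EGR factors) and GGAATG (TEAD factors), and no motif overlapped another in these windows. Pmp22 held 1 GGAATG on the opposite strand, 173 to 168 bases before the start, and Prx held 1 on the opposite strand, 37 to 32 bases before the start. Mag held 1 ACAAAG on the opposite strand, 67 to 62 bases before the start. The windows of Pmp22 start sites 2, 3 and 4, not shown, held none of the letters. The window of Mag start site 2 overlaps the one shown and held the same ACAAAG, 126 to 121 bases before that start. Mag start site 3 held 1 GGAATG on the opposite strand, 227 to 222 bases before it. The windows of S100b and Ncmap held none of the letters. Among 32851 promoters of the same length, 12.6% held GGAATG, 16.5% ACAAAG, 10.7% ACAATG and 7.02% GTGGGCG, so short matches of this kind were common.

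Pmp22 (ENSMUSG00000018217, chr11:63128982-63159547 on GRCm38) encodes a small membrane protein of compact peripheral myelin whose dosage is altered in inherited neuropathy. Its level was 285, 350.3 and 389.9 CPM in the sEVCTRL glands, 264, 176 and 321 CPM in the sEVNORM glands, and 350.3 and 361 CPM in the sEVHYP glands. The group means were 342 ± 52.7 (SD, n = 3), 254 ± 73.0 (n = 3) and 356 ± 7.59 CPM (n = 2). Both sEVHYP glands lay above all sEVNORM glands and inside the range of the sEVCTRL glands.

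Mbp (ENSMUSG00000041607, chromosome 18) encodes myelin basic protein, which holds the cytoplasmic faces of the myelin membrane together. It was the steadiest of the 7, with 83.5, 79.2 and 95.1 CPM in sEVCTRL, 77.6, 69.4 and 85.2 CPM in sEVNORM, and 81.9 and 75.5 CPM in sEVHYP. The 3 groups overlapped, and the highest library was 1.37-fold above the lowest. The SD of its log2 CPM over the 8 libraries, 0.13, was larger than that of only 20.2% of the 500 genes closest to it in level, whereas Pmp22, with an SD of 0.37, was above 84.4% of its neighbours in level.

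Prx (ENSMUSG00000053198, chr7:27499324-27520214) encodes periaxin, a scaffold of the outer Schwann cell membrane that binds the dystroglycan complex through DRP2. It had 2.54, 4.33 and 4.87 CPM in sEVCTRL, 2.37, 1.60 and 5.06 CPM in sEVNORM, and 2.75 and 4.82 CPM in sEVHYP. The highest and the lowest of the 8 glands were both from sEVNORM, a 3.17-fold range, and the groups overlapped. An annotated antisense gene, Gm15541, shares exons with Prx on the other strand and held 0 to 14 counts per library, and whether the counting used strand is not given in the sources used here.

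Ncmap (ENSMUSG00000043924, chr4:135369576-135398227) encodes a membrane protein of the non-compact regions of peripheral myelin. It had 0.762, 1.64 and 1.04 CPM in sEVCTRL, 1.37, 0.709 and 2.08 CPM in sEVNORM, and 1.69 and 1.66 CPM in sEVHYP, from 15 to 44 counts per library. Its sEVHYP glands lay just above all 3 sEVCTRL glands and inside the range of the sEVNORM glands.

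Mag (ENSMUSG00000036634, chr7:30899176-30914873) encodes myelin-associated glycoprotein, the adhesion molecule that faces the axon. It was the scarcest member, at 0.965, 0.866 and 1.04 CPM in sEVCTRL, 0.362, 0.266 and 0.804 CPM in sEVNORM, and 0.504 and 0.696 CPM in sEVHYP. Over all genes tested, sEVCTRL did not overlap with sEVHYP for 12.8% and with sEVNORM for 4.86%, in either direction. For Mag the sEVCTRL glands, with 19 counts each, lay above all 5 glands given tumor cell sEVs. Counts of this size are imprecise, since the exact Poisson 95% interval of 19 counts was 11.4 to 29.7, that of the 6 counts in sEVNORM replicate 2 was 2.20 to 13.1, and that of the 17 counts in sEVNORM replicate 3 was 9.90 to 27.2 (intervals cover counting error only).

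Sox10 (ENSMUSG00000033006, chr15:79154908-79165240) encodes the transcription factor of the Schwann cell lineage, which is also found in melanocytes and mammary epithelial cells. It had 3.66, 7.71 and 7.55 CPM in sEVCTRL, 10.2, 3.24 and 5.91 CPM in sEVNORM, and 4.63 and 6.96 CPM in sEVHYP. The highest and the lowest gland were both from sEVNORM. The summed level of 10 melanocyte markers was 304 CPM in sEVNORM replicate 1, where Sox10 was highest, and 166 CPM in sEVNORM replicate 2, where it was lowest, against 180 to 254 CPM in the other libraries. Ednrb, Kit and Mitf made up most of these sums, while the pigment genes Slc45a2 and Oca2 had at most 3 counts over all libraries. In sEVNORM replicate 1, 2 of 6 tested melanocyte markers, 6 of 12 luminal markers and 0 of 8 basal epithelial markers were at their highest. The share was 7.47% over all genes tested, and Kit was on both the melanocyte and the luminal list. The luminal sum was 1691 CPM there and 1600 CPM in sEVNORM replicate 2, against 1051 to 2236 CPM in the other libraries. The part of melanocyte or epithelial RNA in the Sox10 level was not tested.

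S100b (ENSMUSG00000033208, chr10:76253853-76261159) encodes a calcium-binding protein used as a Schwann cell marker, which adipocytes also make. It had 2.08, 5.02 and 4.43 CPM in sEVCTRL, 2.61, 1.86 and 3.97 CPM in sEVNORM, and 2.79 and 2.57 CPM in sEVHYP. The sEVHYP glands sat within the range of both other groups. The plot of the 7 levels by gland shows each of these values.

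**Figure D1:**
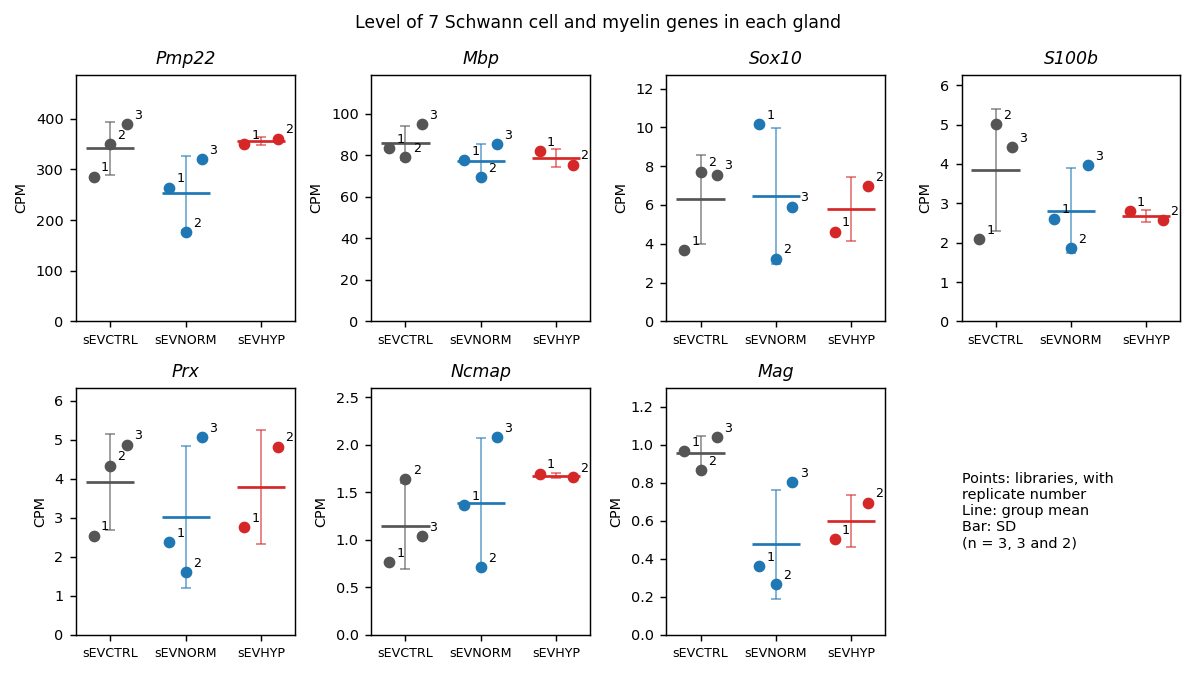
Level of each of the 7 genes (CPM, linear axis from 0) in every library of sEVCTRL, sEVNORM and sEVHYP, with the replicate number beside each point, the group mean as a line and the SD as a bar (n = 3, 3 and 2). The lowest point of every panel is sEVNORM replicate 2, and the groups do not overlap for Ncmap and Mag between sEVHYP and sEVCTRL, for Pmp22 between sEVHYP and sEVNORM, and for Mag between sEVNORM and sEVCTRL.

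A single library was the lowest of 8 for all 7 genes. In sEVNORM replicate 2 the level was 35.6% of the mean of the other libraries for Mag, 41.8% for Prx, 48.5% for Ncmap, 48.6% for Sox10, 53.0% for Pmp22, 55.5% for S100b and 84.1% for Mbp. Over all genes tested, that library was the lowest for 16.6%. Among 17 other tested genes of myelin structure it was the lowest for 11 (64.7%). The share was 35.7% among 14 genes of axon to Schwann cell signalling, 33.3% among 12 non-myelinating Schwann cell genes, 18.2% among 11 nerve sheath genes, 9.09% among 11 transcription factors of the lineage, and 0% among 7 neuron and axon genes. These shares are counts without a test. The 7 genes and the other lists were chosen with earlier results of these data known, so the shares may in part reflect that choice. The second-lowest library was not the same for all, being sEVCTRL replicate 1 for Sox10, S100b and Ncmap, sEVNORM replicate 1 for Pmp22, Prx and Mag, and sEVHYP replicate 2 for Mbp. The highest library was sEVCTRL replicate 3 for Pmp22, Mbp and Mag (19.8% of all genes tested), and none of the 7 was highest in an sEVHYP gland. Over all genes tested, 7.67% were highest in sEVHYP replicate 1 and 12.5% in sEVHYP replicate 2.

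Some other tissue markers moved in the same library. sEVNORM replicate 2 was the lowest of 8 for 9 of 10 skeletal muscle markers, 6 of 10 white adipocyte markers, 5 of 8 endothelial markers and 4 of 8 basal epithelial markers. It was also the lowest for 3 of 8 fibroblast, 2 of 12 luminal, 1 of 6 melanocyte, and 1 of 5 keratinocyte and skin markers. Over all genes tested it was the lowest for 16.6% and the highest for 17%. It was the highest for 6 of 10 B and T cell markers, with a summed level of 2585 CPM against 858 to 2322 CPM in the other libraries. Among the other glands the muscle sum was largest in sEVHYP replicate 2 (12079 CPM) and sEVCTRL replicate 2 (8044 CPM). There the 7 genes had a median centred log2 CPM of 0.25 and 0.39. The sum was smallest in sEVCTRL replicate 1 (643 CPM), where that median was -0.36. Between these, the median was -0.10 in sEVHYP replicate 1 (muscle sum 4320 CPM) and -0.19 in sEVNORM replicate 1 (2776 CPM). It was 0.37 in sEVCTRL replicate 3 (2288 CPM) and 0.30 in sEVNORM replicate 3 (1315 CPM), so median and muscle sum did not run in the same order. The median was negative in sEVNORM replicates 1 and 2, sEVHYP replicate 1 and sEVCTRL replicate 1. The white adipocyte sum was 9487 to 13624 CPM in these glands and 14730 to 17270 CPM in the others. The endothelial sum was 591 to 642 CPM and 711 to 799 CPM. The fibroblast sum did not part the glands this way, with 4258 CPM in sEVCTRL replicate 3 and 5422 CPM in sEVHYP replicate 1. In bulk tissue, fewer Schwann cells in the piece of gland taken and less RNA per Schwann cell cannot be told apart, and the part of tissue content in these levels was not tested.

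**Figure D2:**
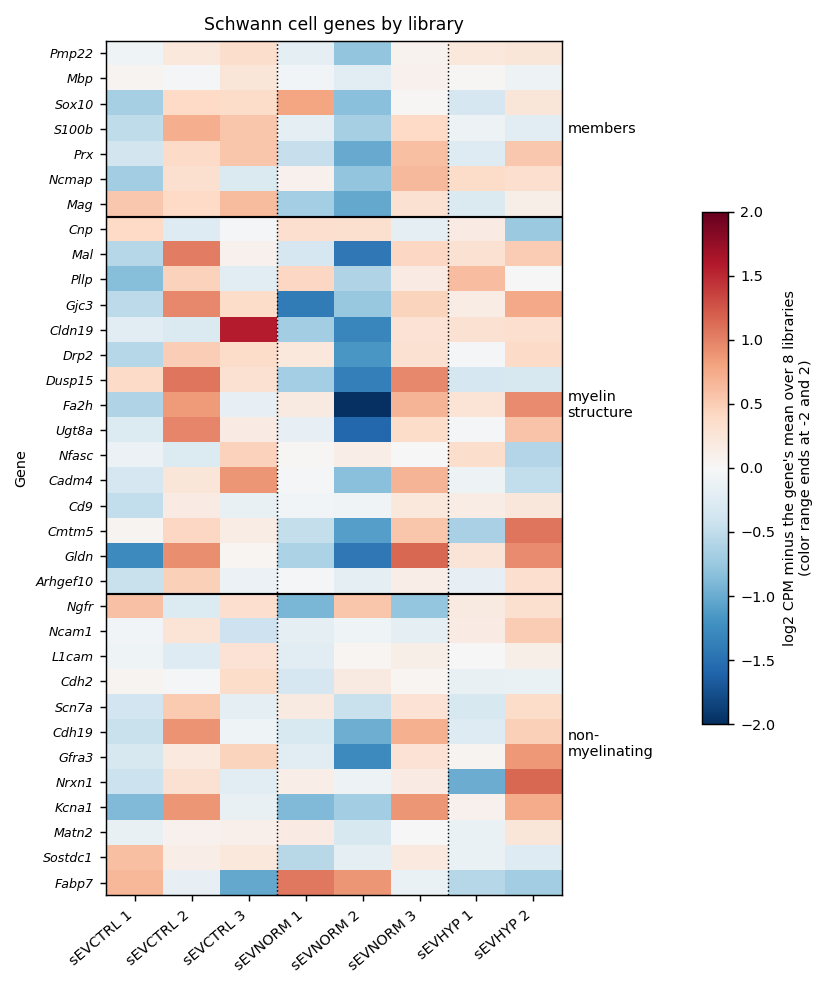
Heat map of log2 CPM minus the mean of each gene over the 8 libraries (colors from -2 to 2) for the 7 genes, 15 of the 17 other tested genes of myelin structure and 12 genes of non-myelinating Schwann cells, with libraries in columns and groups parted by dotted lines. The column of sEVNORM replicate 2 is blue for all 7 genes, with a median of -0.79, and has a median of -1.10 over the 17 other myelin genes.

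No gene of the 7 passed the test between glands given sEVHYP and glands given sEVCTRL. Fitted levels were higher for 2 genes and lower for 5 (52.5% of all genes were lower), and the median log2 fold change was -0.12, against -0.02 over all genes. With edgeR's quasi-likelihood test, 0 of 7 had an adjusted P under 0.05 (background 0%), 0 of 7 had an unadjusted P under 0.05 (background 2.45%), and DESeq2 also called 0. The groups did not overlap for Ncmap (higher) and Mag (lower), 2 of 7 against a background of 12.8% of all genes. For Ncmap the log2 fold change was 0.54 (SE 0.53, 95% interval -0.65 to 1.73), and for Mag it was -0.67 (SE 0.59, -2.0 to 0.66), with an adjusted P of 1.00 for both. The best-measured gene, Mbp, had a log2 fold change of -0.13 (SE 0.16, -0.48 to 0.23), and Pmp22 one of 0.06 (SE 0.25, -0.52 to 0.63). Without sEVHYP replicate 1 or replicate 2 the median of the 7 was 0.08 or -0.46. Intervals of Sox10, S100b, Prx, Ncmap and Mag reached past a doubling or halving in at least 1 direction, so changes of that size were not excluded for them.

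Pmp22 had the largest difference relative to its error between sEVHYP and sEVNORM. Its log2 fold change was 0.49 (SE 0.25, 95% interval -0.08 to 1.06, unadjusted P = 0.0838, adjusted P = 1.00 by edgeR), and both sEVHYP glands were above all 3 sEVNORM glands. It was the only gene of the 7 whose groups did not overlap, 1 of 7 against a background of 22.8%, and 0 of 7 had an unadjusted P under 0.05 (background 3.95%) by edgeR or by DESeq2. Fitted levels were higher in sEVHYP for 5 genes and lower for Sox10 and S100b (53% of all genes were lower), with a median of 0.28. Log2 fold changes were 0.33 (SE 0.51) for Prx, 0.33 (SE 0.59) for Mag, 0.28 (SE 0.52) for Ncmap and 0.02 (SE 0.16) for Mbp. These values moved with single libraries, among them the one that was lowest for all 7. Without sEVNORM replicate 2, Pmp22 was at 0.28 (SE 0.21, unadjusted P = 0.222), Prx at 0.03, Mag at 0.05 and Ncmap at -0.04, and the signs were 3 higher and 4 lower (median -0.04). Without sEVNORM replicate 3, Pmp22 was at 0.69 (unadjusted P = 0.0276), and the median was 0.68. Without sEVHYP replicate 2 the median was 0.07 (4 higher and 3 lower) and Prx was at -0.14, and without sEVHYP replicate 1 the median was 0.26.

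Between sEVNORM and sEVCTRL, Mag was lower in all 3 sEVNORM glands, the only one of the 7 without overlap (background 4.86%). Its log2 fold change was -1.0 (SE 0.52, 95% interval -2.18 to 0.18, unadjusted P = 0.0875, adjusted P = 1.00 by edgeR's quasi-likelihood test). Pmp22 was at -0.43 (SE 0.23, -0.95 to 0.08, unadjusted P = 0.0901), S100b at -0.45 (SE 0.40), Prx at -0.38 (SE 0.46) and Mbp at -0.15 (SE 0.14). Ncmap (0.26, SE 0.48) and Sox10 (0.03, SE 0.44) had fitted levels above sEVCTRL and the other 5 below (50.2% of all genes were below), and the median of the 7 was -0.38 against 0.00 over all genes. Again 0 of 7 passed an unadjusted P of 0.05 (background 1.62%) by edgeR or by DESeq2. Without sEVNORM replicate 2, Mag was at -0.72, Pmp22 at -0.23 and Prx at -0.08, and the median was -0.08. Without sEVNORM replicate 3, Mag (-1.58, unadjusted P = 0.0213) and Pmp22 (-0.64, unadjusted P = 0.0285) passed that threshold, with adjusted P of 1.00. Over all genes, 222 to 1018 passed it in this comparison with single libraries left out. The comparisons share libraries, so that the values of sEVHYP against sEVNORM and of sEVNORM against sEVCTRL are not independent.

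**Figure D3:**
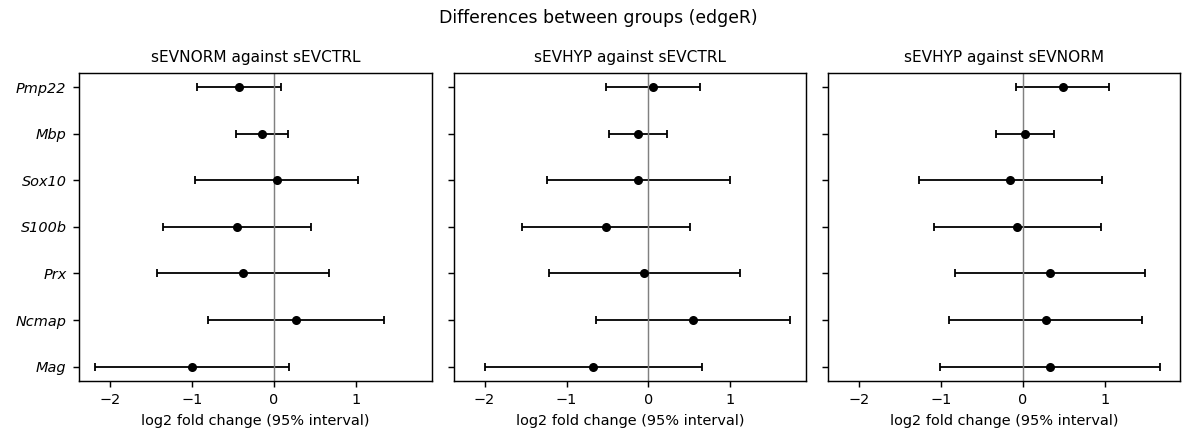
Log2 fold change of each of the 7 genes in the 3 comparisons (points), with the 95% interval of the edgeR fit (bars) and no difference as a gray line. Every interval includes 0, with Mbp the narrowest and Mag the widest, and Pmp22 comes closest to 0 with the edge of its interval in sEVHYP against sEVNORM (-0.08) and in sEVNORM against sEVCTRL (0.08).

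With all 8 libraries, none of the other structural genes of myelin passed an unadjusted P of 0.05. Of 18 listed, 17 were tested, since Gjb1, the gap junction protein of non-compact myelin, had at most 7 counts in a library. In sEVNORM against sEVCTRL, 13 were lower and 4 higher (median log2 fold change -0.24), and in sEVHYP against sEVNORM the split was 13 higher to 4 lower (median 0.30). In sEVHYP against sEVCTRL it was 9 to 8 (median 0.02). These values moved with single libraries. Without sEVNORM replicate 2 the 17 genes were 9 higher and 8 lower in sEVNORM against sEVCTRL (median 0.01), and 11 and 6 in sEVHYP against sEVNORM (median 0.10). Without sEVNORM replicate 3 they were 4 and 13 in sEVNORM against sEVCTRL (median -0.81, 4 genes at an unadjusted P under 0.05), and 15 and 2 in sEVHYP against sEVNORM (median 0.75, 2 genes). Over all genes, 222 to 1018 were at that threshold in sEVNORM against sEVCTRL with single libraries left out. The number for this setting is not given here, so these counts were not set against a background. Without sEVCTRL replicate 1 or replicate 2 the median of sEVNORM against sEVCTRL was -0.53 or -0.06. In sEVHYP against sEVCTRL the median ran from -0.22 without sEVCTRL replicate 1 to 0.38 without sEVCTRL replicate 2.

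Cnp, an enzyme of non-compact myelin that other cells also make, was not low in the library that was lowest for the 7, with 38.8 CPM in sEVNORM replicate 2, 126% of the mean of the other libraries. Cd9, a tetraspanin of many cell types and the most abundant of the list, held 119 to 197 CPM.

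Among transcription factors of the Schwann cell lineage, Egr2 was the only gene past an unadjusted P of 0.05 with all 8 libraries. EGR2, also called Krox20, drives the myelin genes and is also an early response gene of lymphocytes. It had 2.39, 2.24 and 2.96 CPM in sEVCTRL, 4.06, 5.76 and 5.01 CPM in sEVNORM, and 7.93 and 4.18 CPM in sEVHYP. Over all genes tested, sEVCTRL did not overlap with sEVHYP for 12.8% and with sEVNORM for 4.86%, in either direction. For Egr2, all 5 glands given tumor cell sEVs were above all 3 sEVCTRL glands. The log2 fold change was 1.26 (SE 0.33, unadjusted P = 0.00436) for sEVHYP and 0.97 (SE 0.31, unadjusted P = 0.0115) for sEVNORM against sEVCTRL, with an adjusted P of 1.00 in edgeR's quasi-likelihood test for both. Without sEVHYP replicate 1 the first was 0.73 (unadjusted P = 0.0888). In sEVNORM replicate 2 the 7 genes were lowest and the B and T cell sum was highest. Egr2 was there at 140.3% of the mean of the other libraries. The next highest sum, 2322 CPM, was in sEVCTRL replicate 1, where Egr2 was at 2.39 CPM. Egr2 was highest in sEVHYP replicate 1 (7.93 CPM), where that sum was 1733 CPM. The part of lymphocyte RNA in the Egr2 level was not tested. Of 16 factors listed, 11 were tested, and 10 were higher and 1 lower in sEVHYP than in sEVCTRL (median 0.27), 9 and 2 against sEVNORM (median 0.13), and 8 and 3 in sEVNORM against sEVCTRL (median 0.06). The median of sEVNORM against sEVCTRL turned to -0.06 without sEVCTRL replicate 1. Without sEVCTRL replicate 2 the factors at an unadjusted P under 0.05 (edgeR) numbered 4 in sEVHYP and 3 in sEVNORM against sEVCTRL. Over all genes these numbers rose as well without that library, from 438 to 1472 and from 290 to 1018. Zeb2, Tead1 and Nab1, the most abundant of them, are used by many cell types.

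Genes of axon to Schwann cell signalling, led by the integrins Itgb1 and Itga6 and the laminin Lamc1, were all tested. In sEVHYP, 11 of 14 were higher and 3 lower than in sEVCTRL (median 0.15), 8 and 6 against sEVNORM (median 0.04), and 11 and 3 in sEVNORM against sEVCTRL (median 0.07). Each of these medians changed sign when 1 library was left out. In sEVHYP against sEVCTRL it was -0.04 without sEVHYP replicate 2 and 0.32 without sEVCTRL replicate 2. In sEVHYP against sEVNORM it was -0.10 without sEVHYP replicate 2, -0.07 without sEVNORM replicate 2 (5 higher and 9 lower) and 0.16 without sEVNORM replicate 3. In sEVNORM against sEVCTRL it was -0.06 without sEVCTRL replicate 1, -0.04 without sEVNORM replicate 3 (6 and 8) and 0.29 without sEVCTRL replicate 2. Dag1, which encodes the dystroglycan that periaxin is linked to, had 72.9, 107 and 105 CPM in sEVCTRL, 95.05, 72.8 and 95.7 CPM in sEVNORM, and 117 and 126 CPM in sEVHYP. It was above both other groups in both sEVHYP glands. In either direction, sEVHYP did not overlap with sEVCTRL for 12.8% of all genes and with sEVNORM for 22.8%. The log2 fold change of Dag1 against sEVNORM was 0.47 (SE 0.21, unadjusted P = 0.0484, adjusted P = 1.00 by edgeR). Without sEVNORM replicate 2 this was 0.35 (unadjusted P = 0.140), and Dag1 did not pass an unadjusted P of 0.05 without any other library of these groups either.

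With all 8 libraries, none of the non-myelinating Schwann cell genes passed an unadjusted P of 0.05. Of 15 listed, 12 were tested, with Gfap and Gap43 among those too low, and 7 were higher and 5 lower in sEVHYP than in sEVCTRL (median 0.04), 9 and 3 against sEVNORM (median 0.14), and 3 and 9 in sEVNORM against sEVCTRL (median -0.13). Without sEVNORM replicate 2 the last pair of splits became 6 and 6 in both (medians 0.05 and 0.00), with Ngfr at an unadjusted P under 0.05 in each. Over all genes, 222 were at that threshold in sEVNORM against sEVCTRL without this library. Without sEVHYP replicate 2, when 13 genes were tested, the median of sEVHYP was -0.30 against sEVCTRL and -0.11 against sEVNORM. Without sEVHYP replicate 1, when 14 were tested, it was 0.24 and 0.54. The median of sEVNORM against sEVCTRL ran from -0.20 without sEVCTRL replicate 1 to 0.03 without sEVCTRL replicate 2. Scn7a, Matn2 and Cdh19 were the most abundant. Cdh19, a cadherin of Schwann cell precursors, was at 9.00 CPM in sEVNORM replicate 2, 43.2% of the mean of the other libraries, and Scn7a, a sodium channel, was at 68.4%.

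Nerve sheath genes, led by Slc2a1, Cldn1 and Ntn4, had 5 higher and 6 lower of 11 in sEVHYP against sEVCTRL (median -0.03), 3 and 8 against sEVNORM (median -0.22), and 9 and 2 in sEVNORM against sEVCTRL (median 0.05). With single libraries left out these medians ran from -0.11 (without sEVCTRL replicate 3) to 0.04 (without sEVCTRL replicate 2), from -0.37 (without sEVNORM replicate 2) to -0.04 (without sEVNORM replicate 1), and from -0.01 (without sEVNORM replicate 3) to 0.16 (without sEVCTRL replicate 2). Cdkn2b, a cell cycle inhibitor, was the only one past an unadjusted P of 0.05 with all 8 libraries, at 3.82, 4.03 and 3.60 CPM in sEVNORM and 6.18 and 5.62 CPM in sEVHYP, a log2 fold change of 0.63 (SE 0.23, unadjusted P = 0.0250, adjusted P = 1.00 by edgeR). It was past that threshold without sEVNORM replicate 2 (unadjusted P = 0.0438) and not without any other library of these groups (unadjusted P of 0.0587 to 0.122).

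Axonal transcripts were scarce. Of 16 neuron and axon genes, 7 were tested, and Nefl, Nefm, Th, Scn10a and Dbh had at most 3 counts over all libraries. The 7 tested genes, led by Stmn2, Nefh and Uchl1, were 3 higher and 4 lower in sEVHYP than in sEVCTRL (median -0.29), 2 and 5 against sEVNORM (median -0.04), and 4 and 3 in sEVNORM against sEVCTRL (median 0.02). With single libraries left out they ran from -0.50 (without sEVHYP replicate 1) to -0.06 (without sEVHYP replicate 2), from -0.31 (without sEVHYP replicate 1) to 0.05 (without sEVNORM replicate 3), and from -0.39 (without sEVCTRL replicate 2) to 0.09 (without sEVNORM replicate 3). The list summed to 17.7 to 27.9 CPM.

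Relations between the 7 genes from gland to gland were positive, and 0 of 21 pairs passed an adjusted P of 0.05 in the exact permutation test. All 21 pairs had a positive Pearson's r of log2 CPM over the 8 libraries, from 0.16 (Mbp and Ncmap) to 0.85 (Pmp22 and Prx), with a median of 0.61. For Pmp22 and Prx the exact permutation P was 0.00489, or 0.103 after Benjamini-Hochberg adjustment over the 21 pairs. Spearman's rho was 0.76 (exact permutation P = 0.0368, adjusted 0.252), and r without the 2 libraries farthest from the median of Pmp22 was 0.57. For S100b and Prx, r was 0.79 (exact permutation P = 0.0303, adjusted 0.127) and 0.78 without the 2 libraries farthest from the median of S100b. For Pmp22 and Mag, r of 0.77 turned to -0.12 without the 2 libraries farthest from the median of Pmp22, so that this relation rested on those libraries. Leaving out sEVNORM replicate 2 alone left 17 of 21 pairs positive, with r from -0.37 to 0.73 and a median of 0.39. Within groups, after each group mean was taken off, r was 0.88 for Pmp22 and Prx, 0.82 for S100b and Prx, and 0.78 for Pmp22 and Mag.

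**Figure D4:**
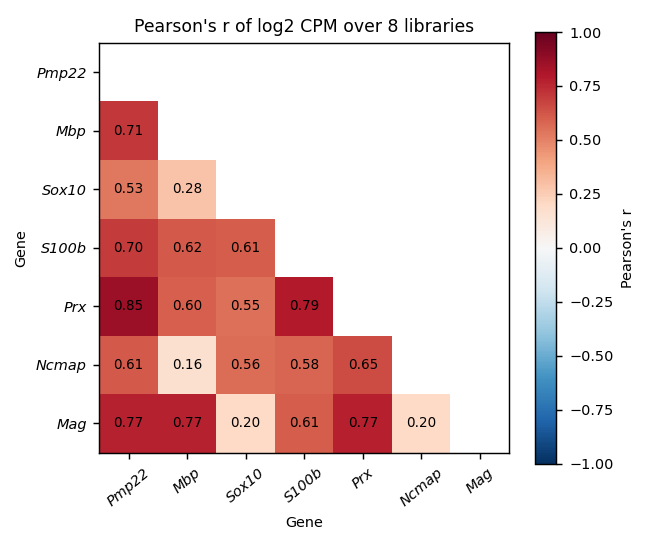
Pearson's r of log2 CPM over the 8 libraries for each of the 21 pairs of the 7 genes, printed in each cell and colored from -1 to 1. Prx has the highest values, 0.85 with Pmp22 and 0.79 with S100b, and Mbp with Ncmap (0.16), Sox10 with Mag (0.20) and Ncmap with Mag (0.20) the lowest.

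Genes with the profile most like Prx were sought by the root mean square difference of log2 CPM centred on each gene's own mean, over the 8 libraries and 15219 genes of at least 1 CPM. The nearest were Gm10644 (0.12), Ptprr (0.18), Podn (0.20), Gpt2 (0.20) and Cachd1 (0.22), against a median of 0.62. On the same measure Drp2, which encodes the protein that binds periaxin, ranked 101 (0.30), Pmp22 164 (0.32), S100b 278 (0.35), Mag 529 (0.38), Ncmap 1470, Mbp 2691 and Sox10 3392. Drp2 itself was at 8.89, 18.7 and 17.2 CPM in sEVCTRL, 15.4, 5.90 and 16.5 CPM in sEVNORM, and 13.1 and 17.3 CPM in sEVHYP. For Sox10 the nearest were Plb1, Rhou, Sdk2, Fxyd3 and AI661453, each at 0.18 to 0.19, against a median of 0.59. Drp2 ranked 85 for Sox10 (0.29), and the other 6 genes described here ranked 1904 (S100b) to 11548 (Mag). Mag had 6 to 19 counts per library, and counting error adds to this measure. The rank of Mag is therefore not read as a difference in profile.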

How the data were processed

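Whole mammary glands were profiled by RNA sequencing of polyadenylated RNA in 8 libraries, prepared with a strand-specific kit. The authors aligned reads with STAR to mm10 (GRCm38) and deposited gene counts estimated with RSEM 1.2.12 on Ensembl release 89. The deposited counts are whole numbers and carry no normalization, and how the estimates became whole is not given in the sources used here. Groups were taken from the sample labels, and their names from the paper. The 7 genes and the 16 other lists were chosen with earlier results of these data known.

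Symbols, positions and exon lengths came from GENCODE release M21, which named 51596 of 51789 genes. The main test was the two-sided quasi-likelihood F-test of edgeR 4.0.16 in R 4.3.3. Genes passed filterByExpr at a minimum count of 10, TMM factors ranged from 0.975 to 1.02, and a single model held the 3 groups (5 residual and 4.08 prior degrees of freedom). Total counts were 18194996 to 24622569 per library. P values were adjusted with the Benjamini-Hochberg method over 17858 genes. Log2 CPM used a prior count of 2. Pairs were tested by exact permutation of 40320 pairings with scipy 1.17.1 in Python 3.11.15. No library was a duplicate of another, the procedure was tested on simulated data, and no batch is named in the sources used here.

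Named genes are the 7, for each nerve list the 3 most abundant genes and any past an unadjusted P of 0.05, and the 5 genes closest in profile to Prx and to Sox10. Drp2, Gjb1 and the other single genes outside this rule were named after their values were seen, and some genes of the lists are not reported here by name. Alternatives were the size factors of DESeq2 1.42.0, the DESeq2 test on 8 libraries or per pair of groups, edgeR per pair of groups, no filter, a minimum of 10 counts throughout, a replicate block, and each library left out. Counts and medians of the nerve lists without each library were added after the data were seen.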

Additional observations from a re-analysis of the deposited data

How the results depend on the processing

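No alternative brought any of the 7 genes past an adjusted P of 0.05. Of 256 values of the 21 differences (7 genes in 3 comparisons), 237 kept their direction and 19 reversed, in 10 differences, and all reversals came from the replicate block or from leaving out a library. Same-numbered libraries did not deviate together (correlations of -0.42 to 0.37), so the numbers are taken as names. With the replicate block, Prx was at 0.26 in sEVHYP against sEVCTRL and S100b at 0.17 in sEVHYP against sEVNORM, and 1 of the 7 (Pmp22, 0.66) had an unadjusted P under 0.05 in sEVHYP against sEVNORM.

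Genes with an unadjusted P under 0.05 without the filter on low counts numbered 672 (sEVHYP against sEVCTRL), 1102 (sEVHYP against sEVNORM, 1 past an adjusted P of 0.05) and 533 (sEVNORM against sEVCTRL). Past an adjusted P of 0.05, DESeq2 on all libraries called 4, 16 and 2 genes, and DESeq2 on only the 2 groups compared called 14, 83 and 3 (1195 at an unadjusted P in sEVHYP against sEVNORM). The cause was not tested.

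With each library left out in turn, 407 to 1472, 415 to 827 and 222 to 1018 genes had an unadjusted P under 0.05, the highest counts without sEVCTRL replicate 2 in the first and the third (568 in the third without sEVCTRL replicate 1) and the lowest in the second without sEVHYP replicate 2. Of the 7, 0 to 1 passed in sEVHYP against sEVNORM and 0 to 2 in sEVNORM against sEVCTRL, the higher counts without sEVNORM replicate 3, and 0 to 1 of the 21 pairs had an adjusted P under 0.05 (exact permutation), also without sEVNORM replicate 3. Log2 fold changes that reversed ranged as follows. In sEVHYP against sEVCTRL they were -0.063 to 0.16 for Pmp22, -0.46 to 0.14 for Sox10 and -0.52 to 0.30 for Prx. In sEVHYP against sEVNORM they were -0.048 to 0.098 for Mbp, -0.49 to 0.34 for Sox10, -0.29 to 0.26 for S100b, -0.14 to 0.92 for Prx, -0.036 to 0.68 for Ncmap and -0.24 to 0.67 for Egr2. In sEVNORM against sEVCTRL they were -0.46 to 0.35 for Sox10, -0.14 to 0.62 for Ncmap and -0.30 to 0.0038 for Dag1. Where 1 sEVHYP library was left out, the remaining one was assumed to vary like the other groups. Mag and Ncmap had the fewest counts of the 7, beside a biological coefficient of variation of 0.369 and 0.392.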
